A study of Mus musculus with 6 samples.

Results

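The miR-23-27-24 clusters are a pair of short mouse miRNA gene clusters, and their 11 entries were followed here in vesicles shed by dying bone-forming cells. Every entry of the deposited table named miR-23a, miR-23b, miR-27a, miR-27b or miR-24, with any arm or copy suffix, was taken by name, which gave 11 of 1712 entries. Small RNA had been sequenced from extracellular vesicles of apoptotic osteoblasts, collected after 48 hours in serum-free medium. The knockout group was Prx1cre;SIRT6f/f (3 libraries), in which Cre under the Prx1 enhancer deletes Sirt6, a histone deacetylase gene, from limb mesenchyme. The control group was SIRT6f/f (3 libraries), with the same floxed alleles and, by its label, no Cre. Both groups share the floxed alleles, the culture and the induction of apoptosis. Age, sex, the number of mice per library and separate cultures are not given in the labels, so the spread between libraries may be technical. The extraction text of the labels names cells, while the sample labels name vesicles. A small RNA table does not hold the Sirt6 transcript, so the deletion was not checked.

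MicroRNAs are cut from hairpin precursors and guide a silencing complex to mRNAs, mainly through the seed, bases 2 to 8 from the 5′ end. A hairpin can give a 5p and a 3p product, of which one usually accumulates. Both clusters hold a miR-23, a miR-27 and a miR-24 hairpin in the same order, and each cluster is known to be transcribed as one precursor. In osteoblasts the chromosome 8 cluster is known as a brake on differentiation, with miR-23a acting on Runx2, the master transcription factor of the lineage. miR-27 is known to restrain fat cell formation through Pparg, and miR-24 to restrain cell cycle genes and the death factor Bim.

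In GRCm38 the chromosome 8 cluster covered 404 bases on the plus strand, with Mir23a at chr8:84208518-84208592, Mir27a at chr8:84208672-84208758 and Mir24-2 at chr8:84208815-84208921. GENCODE M21 placed no other gene over Mir23a or Mir27a, and Mir24-2 overlapped the end of the lincRNA Gm26532 and, on the minus strand, Mir3074-2. The chromosome 13 cluster covered 792 bases on the plus strand, with Mir23b at chr13:63300484-63300557, Mir27b at chr13:63300712-63300784 and Mir24-1 at chr13:63301208-63301275. It lay within the gene 2010111I01Rik on the same strand and within Fancc on the other. Mir23b was intronic in 2010111I01Rik, whereas Mir27b and Mir24-1 overlapped exons of some of its annotated transcripts. Mir3074-1 lay opposite Mir24-1 on the minus strand.

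**Figure D1:**
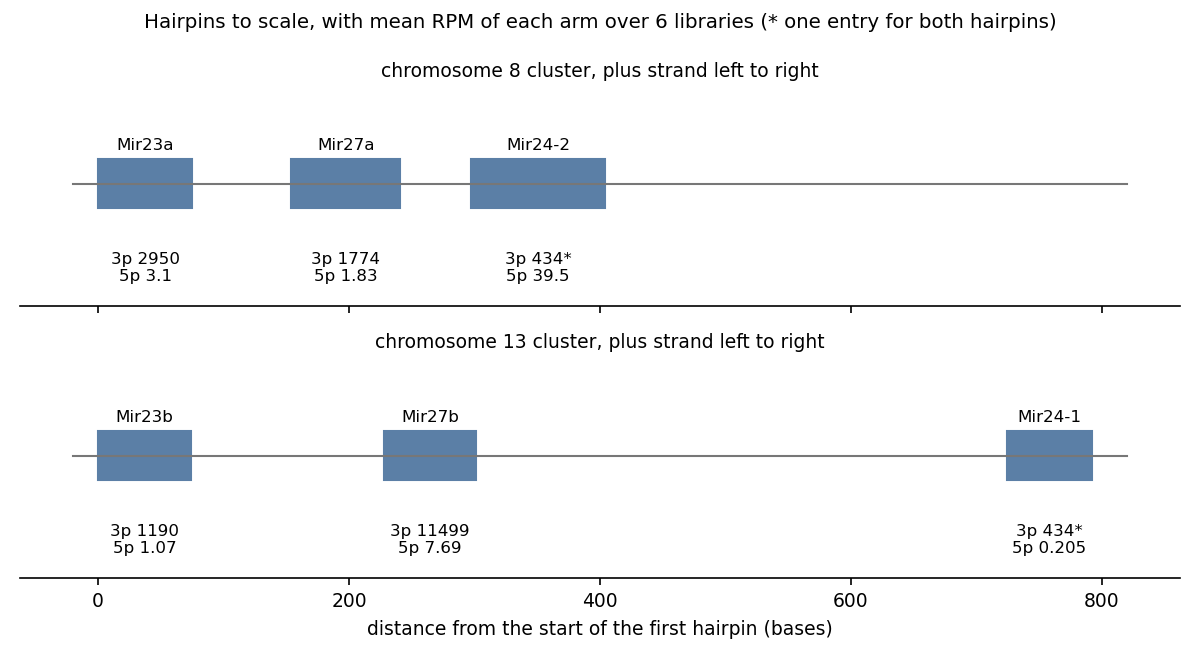
Hairpins of both clusters drawn to scale along the plus strand (x axis: bases from the start of the first hairpin), with the mean RPM of each arm over 6 libraries printed under each hairpin. The 3p arm is the main product of the miR-23 and miR-27 hairpins, and miR-24-3p (434 RPM) is a single entry shared by Mir24-2 and Mir24-1.

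RefSeq (GRCm38.p6) gave a mature sequence for 10 of the 11 entries, and miR-23b-3p is named only. The 3p sequences are shown because they carry nearly all reads and because the paralogs differ so little. Seeds are in capitals.
miR-23a-3p: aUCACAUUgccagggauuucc
miR-27a-3p: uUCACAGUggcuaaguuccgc
miR-27b-3p: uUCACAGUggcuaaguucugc
miR-24-3p: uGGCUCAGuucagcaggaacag
Counting from 1 at the 5′ end, miR-27b-3p differed from miR-27a-3p by a single substitution, C19U, over 21 bases. The seed of miR-27a-3p differed from that of miR-23a-3p by the substitution U7G alone, and the miR-24 seed is unrelated to both. The Mir23b hairpin is shown with the 21 bases that align with miR-23a-3p in capitals, which differ from it by U19A.
Mir23b hairpin: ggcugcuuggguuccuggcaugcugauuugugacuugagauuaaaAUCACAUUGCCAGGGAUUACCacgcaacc
The 5p entries of the miR-24 hairpins share their first 16 bases, and differ after that.
miR-24-2-5p: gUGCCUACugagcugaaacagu
miR-24-1-5p: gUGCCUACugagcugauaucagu
The sources used here do not say how a read that matches both paralogs was assigned, so values that separate 23a-3p from 23b-3p, or 27a-3p from 27b-3p, rest on 1 base near the 3′ end.

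Levels are in RPM, reads per 1000000 reads of all entries listed for a library. In pooled vesicles, fewer vesicles carrying a miRNA and less of it per vesicle cannot be told apart. The libraries held 1608276 to 1838239 listed reads in the knockout group and 1352045 to 1627705 in the control group, and 3 reads corresponded to 1.63 to 2.22 RPM. Ordinary annotated miRNAs (all mouse miRNA names except the fragment-like miR-6236, miR-6238, miR-6239, miR-6240 and miR-3968) took 30.1% to 40.8% of reads in the knockout libraries and 48.0% to 53.0% in the control libraries. Knockout replicate 3 stood apart, with the lowest share (30.1%). Of 8 mesenchymal markers fixed for a check of the labelled lineage, 7 had an entry, and their sum was 43673 to 78751 RPM in knockout and 103579 to 121138 RPM in control vesicles. Markers of other cell types were also summed. The erythroid markers (3 of 4 with an entry) summed to 237 to 431 RPM in knockout and 551 to 820 RPM in control vesicles, the 2 endothelial markers to 15.2 to 26.7 and 47.9 to 63.6 RPM, and the 4 white blood cell markers to 15.8 to 43.5 and 54.8 to 73.1 RPM. The epithelial (6 of 6 with an entry, 16.9 to 31.1 and 21.4 to 25.2 RPM), muscle (3 of 4, 40.3 to 57.6 and 71.0 to 85.1 RPM), neural (2 of 3, 4.35 to 23.7 and 17.2 to 34.02 RPM) and liver (1 of 1, 3.26 to 10.6 and 17.8 to 18.7 RPM) markers are given in the same order. All but the epithelial and neural sums were lower in every knockout library than in any control library, but not every member followed its sum. Among markers with at least 1 RPM in at least 3 libraries, 6 of 7 mesenchymal, 3 of 3 erythroid and 2 of 2 endothelial ones were lower without overlap. So were 2 of 3 white blood cell markers, and 19.3% of all entries at that level. The mesenchymal miR-145a-5p averaged 1070 RPM in knockout and 997 RPM in control vesicles. The part of these markers in the results below was not tested.

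The clusters were a moderate part of the vesicle miRNAs, and 1 product dominated them. The 11 entries summed to 1.59%, 1.64% and 0.924% of all listed reads in the 3 knockout libraries, and to 2.40%, 2.14% and 2.05% in the 3 control libraries. miR-27b-3p alone made up 58.1% to 64.6% of that sum in knockout and 64.1% to 65.7% in control libraries. The 5 entries 27b-3p, 23a-3p, 27a-3p, 23b-3p and 24-3p together made up 99.695% to 99.72% of it in the knockout and 99.67% to 99.73% in the control libraries. By the mean over all libraries these 5 ranked 14, 31, 38, 48 and 71 among 1528 annotated entries.

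mmu-miR-27b-3p, the leading product, stood at 10286, 10543 and 5368 RPM in knockout replicates 1 to 3 and at 15391, 14039 and 13367 RPM in control replicates 1 to 3. mmu-miR-27a-3p, its chromosome 8 twin, stood at 1587, 1657 and 825 RPM in the knockout and at 2477, 2029 and 2068 RPM in the control libraries. For both, every knockout library lay below every control library, and knockout replicate 3 was far below the other knockout libraries. mmu-miR-23a-3p, reported to act on Runx2, stood at 2557, 2667 and 1992 RPM in the knockout and at 3921, 3390 and 3169 RPM in the control libraries. The aligned stretch of the Mir23b hairpin holds the same seed. mmu-miR-23b-3p stood at 1044, 1073 and 782 RPM in the knockout and at 1605, 1356 and 1280 RPM in the control libraries. The miR-23 entries again did not overlap between the groups, with knockout replicate 3 lowest but less far from its group. mmu-miR-24-3p, which both clusters can supply, stood at 400, 416 and 245 RPM in the knockout and at 556, 477 and 510 RPM in the control libraries, without overlap.

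**Figure D2:**
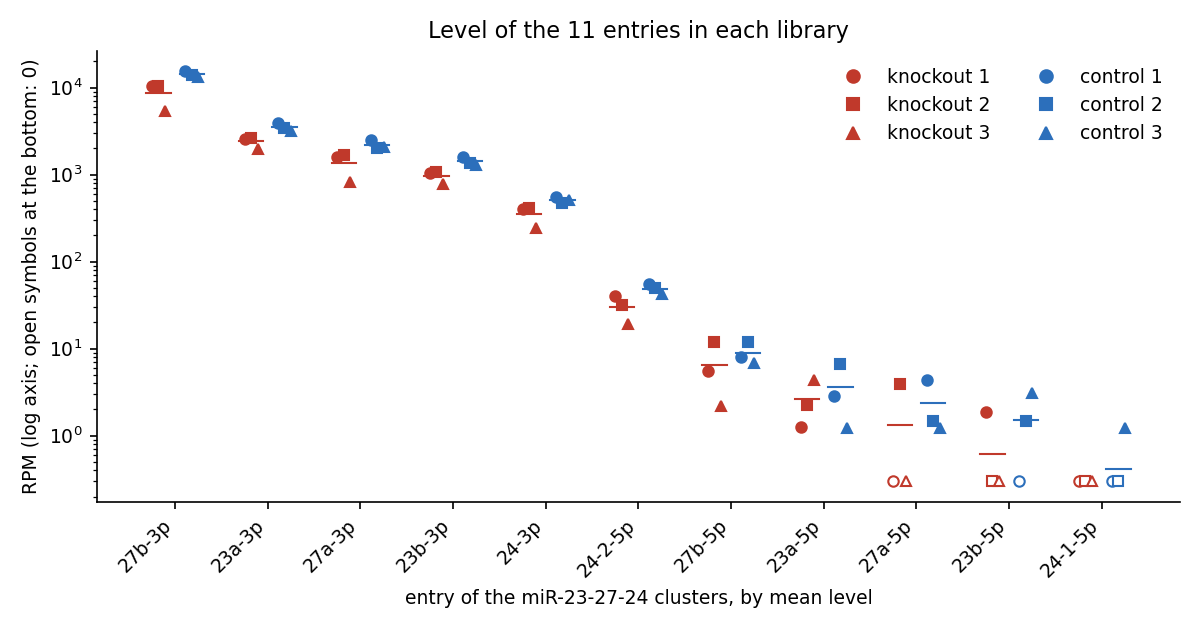
RPM (log axis) of the 11 entries in each library, ordered by mean level, with knockout points left of control points, horizontal lines at group means and open symbols at the bottom for a value of 0. For the 6 entries averaging 10 RPM or more the 3 knockout libraries lie below the 3 control libraries, and for the 5 others the groups overlap.

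The order of the levels was 27b-3p, 23a-3p, 27a-3p, 23b-3p and 24-3p in each of the 6 libraries. The means were 8732 ± 2917 RPM in knockout and 14266 ± 1031 RPM in control vesicles for 27b-3p, and 2405 ± 362 and 3494 ± 386 RPM for 23a-3p (SD, n = 3 each). They were 1356 ± 461 RPM in knockout and 2191 ± 248 RPM in control vesicles for 27a-3p, and 966 ± 160 and 1414 ± 170 RPM for 23b-3p (SD, n = 3 each). In the knockout group the ranges of the neighbours 27a-3p and 23b-3p overlapped, with knockout replicate 3 setting the low end of both. In the control group no neighbouring ranges among these 5 overlapped. miR-24-3p averaged 354 ± 94.3 RPM in knockout and 514 ± 39.6 RPM in control vesicles (SD, n = 3 each).

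The comparison of knockout with control vesicles asks how loss of Sirt6 in the donor lineage goes with the miRNA content of the vesicles. It was tested with limma on log2(RPM + 1) over all 1114 entries with at least 1 RPM in at least 3 libraries, and fold changes are on that scale. None of the 10 cluster entries tested passed a Benjamini-Hochberg adjusted p of 0.05, against 4.85% of all tested entries called in either direction and 2.69% called lower. miR-24-1-5p did not reach the test. At an unadjusted p under 0.05 limma had 3 of the 10, all lower, namely miR-27a-3p, miR-27b-3p and miR-24-3p. At that threshold limma had 60 higher and 163 lower among all 1114 tested entries. The log2 fold change, knockout over control, was -0.77 ± 0.32 (SE) for miR-27b-3p, with a limma adjusted p = 0.137. It was -0.75 ± 0.29 for miR-27a-3p (limma adjusted p = 0.1002). The miR-23 entries had -0.54 ± 0.29 for miR-23a-3p (limma adjusted p = 0.28) and -0.56 ± 0.29 for miR-23b-3p (limma adjusted p = 0.252). miR-24-3p had -0.57 ± 0.29 (limma adjusted p = 0.243). In this fit the whole weight lay on the mean-variance trend, so an entry's own spread between libraries did not enter its SE.

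The groups did not overlap for 6 of the 10 tested entries, all lower in knockout vesicles, against 19.3% of all 1114 tested entries. Those 6 are also the 6 averaging 10 RPM or more, and among all 354 tested entries at that level 43.5% were lower without overlap. Among ordinary annotated miRNAs that share was 52.8% at 10 RPM or more and 72.4% at 100 RPM or more, a level that 5 of the 6 reached. As a share of listed reads, abundant miRNAs as a whole stood lower in knockout vesicles. Entries with only a numeric ID took 52.8% to 62.8% of reads in the knockout and 43.1% to 50.0% in the control libraries. The fragment-like entries took 6.4% to 7.6% and 2.0% to 3.8%. All tested entries had a median log2 fold change of -0.27, and the 269 ordinary annotated miRNAs averaging 10 RPM or more had -0.59, with 79.9% below 0. The 10 cluster entries tested had a median of -0.59, with 10 below 0, and the 6 averaging 10 RPM or more had -0.65. Relative to the median of all tested entries, the 5 main products lay at -0.28 (23a-3p), -0.29 (23b-3p), -0.31 (24-3p), -0.49 (27a-3p) and -0.51 (27b-3p). Relative to the median of those ordinary annotated miRNAs, they lay at 0.05 (23a-3p), 0.04 (23b-3p), 0.02 (24-3p), -0.16 (27a-3p) and -0.18 (27b-3p). The miR-23 and miR-24 products stood near that median, and the miR-27 products lay below it by less than their SE. The 123 ordinary annotated miRNAs averaging 100 RPM or more had a median of -0.66. The miR-23 and miR-24 products lay above that value and the miR-27 products below it, so these offsets depend on the set chosen.

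The libraries were also rescaled to 1000000 reads of ordinary annotated miRNAs. miR-23a-3p then stood at 6713, 6537 and 6615 in the knockout libraries and at 7394, 7060 and 6577 in the control libraries, and its groups overlapped. miR-27b-3p stood at 27001, 25843 and 17830 in the knockout libraries and at 29021, 29233 and 27735 in the control libraries. The groups did not overlap on that scale, and knockout replicate 3 was far below the rest. miR-27a-3p also did not overlap, at 4167, 4061 and 2741 in the knockout libraries and 4670, 4224 and 4291 in the control libraries. For miR-23b-3p, miR-24-3p and miR-24-2-5p the groups overlapped. The share of all entries without overlap was not computed on that scale. On that scale the log2 fold changes were -0.08 for 23a-3p, -0.09 for 23b-3p, -0.11 for 24-3p, -0.29 for 27a-3p and -0.31 for 27b-3p, with limma adjusted p from 0.551 to 0.839. Without knockout replicate 3, with RPM as deposited, the 5 values lay between -0.45 and -0.33 and none passed. For miR-27b-3p the value was -0.45 without that library, against -0.77 with it, for miR-27a-3p -0.43 against -0.75, and for miR-24-3p -0.33 against -0.57.

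**Figure D3:**
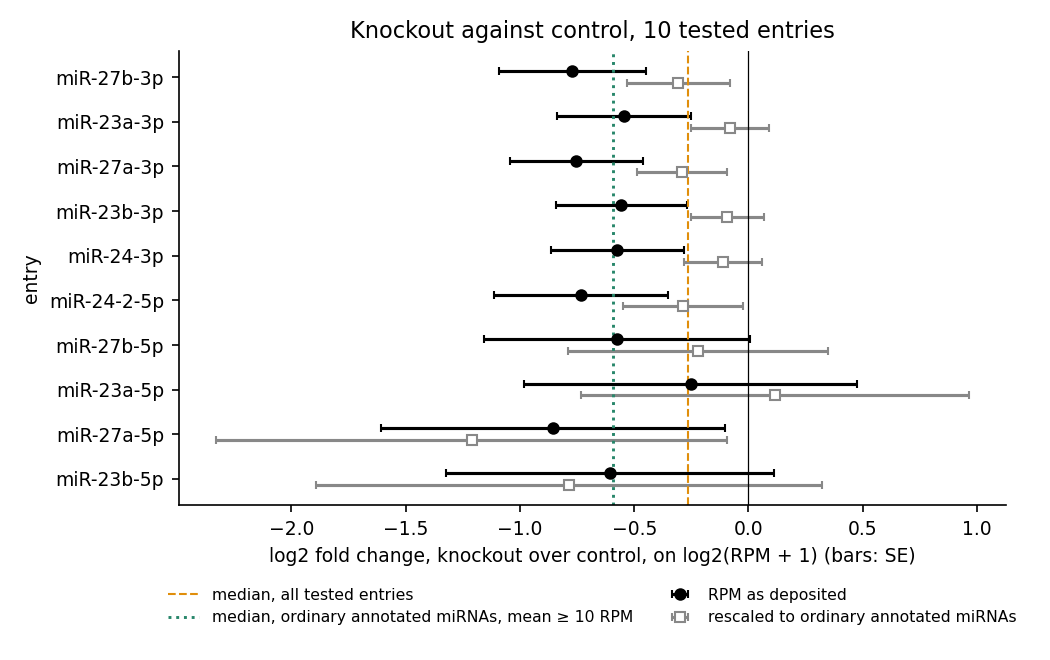
Log2 fold change of the 10 tested entries, knockout over control (x axis), with SE bars, for RPM as deposited (filled circles) and after rescaling to ordinary annotated miRNAs (open squares). The deposited values of the 5 main products, -0.77 to -0.54, sit around the dotted line of ordinary annotated miRNAs (-0.59), and the rescaled ones lie between -0.31 and -0.08.

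The clusters were unequal in a different way for each miRNA. miR-27b-3p of chromosome 13 exceeded miR-27a-3p of chromosome 8 by 6.36 to 6.50 times in the knockout libraries and by 6.21 to 6.92 times in the control libraries. For miR-23 the order was opposite, and 23b-3p stood at 0.393 to 0.408 of 23a-3p in the knockout and at 0.4001 to 0.409 in the control libraries. Each inequality held in 6 of 6 libraries (exact 2-sided sign-flip permutation test, p = 0.03125, the smallest that 6 libraries allow, and 0.0347 after Benjamini-Hochberg adjustment over 10 ratios). Here and for the arms below, this test takes the 6 libraries of both genotypes as 1 set. Its p covers scatter between libraries only, not a bias that all libraries share. Within the chromosome 13 cluster, 27b-3p exceeded 23b-3p by 6.86 to 9.85 times in the knockout and by 9.59 to 10.4 times in the control libraries. Within the chromosome 8 cluster, 27a-3p stood at 0.414 to 0.621 of 23a-3p in the knockout and at 0.598 to 0.652 in the control libraries. Ligation and amplification preferences between sequences were not measured, so these are ratios of reads, not of molecules. Summed without miR-24-3p, which cannot be placed, the chromosome 13 entries had 2.17 to 2.71 times the RPM of the chromosome 8 entries in the knockout and 2.63 to 2.81 times in the control libraries.

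The paralog ratios differed little between libraries. The log2 ratio of 23b-3p to 23a-3p was -1.32 ± 0.03 in knockout and -1.31 ± 0.02 in control vesicles (SD, n = 3 each). That of 27b-3p to 27a-3p was 2.69 ± 0.02 in knockout and 2.71 ± 0.08 in control vesicles (SD, n = 3 each). Neither differed between the genotypes beyond the spread of the libraries (differences -0.01 and -0.02, exact permutation p = 0.6 and 0.9, and the smallest p for 3 against 3 libraries is 0.1). Over all 6 libraries the SD was 0.021 for the miR-23 pair, against 0.040 given by counting reads alone, and 0.052 for the miR-27 pair, against 0.031. As a background, the 47 ordinary annotated miRNAs averaging 1000 RPM or more form 1081 pairs, whose median SD was 0.31. Of these pairs, 0 had a smaller SD than the miR-23 pair and 10 had a smaller SD than the miR-27 pair. The 47 miRNAs include the miR-23 and miR-27 3p entries themselves, and the miR-23 pair is among the 10. The pairs share libraries and entries and are no independent points. The paralogs are separated by a single base near the 3′ end, and how reads matching both were assigned is not given. The part of read assignment in these small SDs was not tested, so they are not a measure of how the clusters are regulated.

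Ratios within a cluster spread more over all 6 libraries, through knockout replicate 3. Ratios of miR-27 to miR-23 were added after the values had been seen, and are described without a test. The log2 ratio of 27a-3p to 23a-3p was -0.69, -0.69 and -1.27 in knockout replicates 1 to 3 and -0.66, -0.74 and -0.62 in the control replicates. The log2 ratio of 27b-3p to 23b-3p was 3.299, 3.296 and 2.78 in the knockout and 3.26, 3.37 and 3.38 in the control replicates. In both clusters knockout replicate 3 alone was low, by a similar step, while its log2 paralog ratios were -1.35 for miR-23 and 2.70 for miR-27. With nearly level paralog ratios, a step in either cluster had to appear in the other. The similar steps in knockout replicate 3 are therefore not separate observations. Without that library the SDs were 0.045 (27a-3p to 23a-3p) and 0.053 (27b-3p to 23b-3p), against 0.014 for the miR-23 pair and 0.058 for the miR-27 pair, so the within-cluster ratios then no longer spread more than the miR-27 pair. The SD over 6 libraries was 0.24 and 0.23, and 396 to 433 of the 1081 background pairs had smaller ones. The genotype differences were -0.21 and -0.21, and -0.01 and -0.04 without knockout replicate 3. In that library the miR-27 entries of both chromosomes were low relative to the miR-23 entries.

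**Figure D4:**
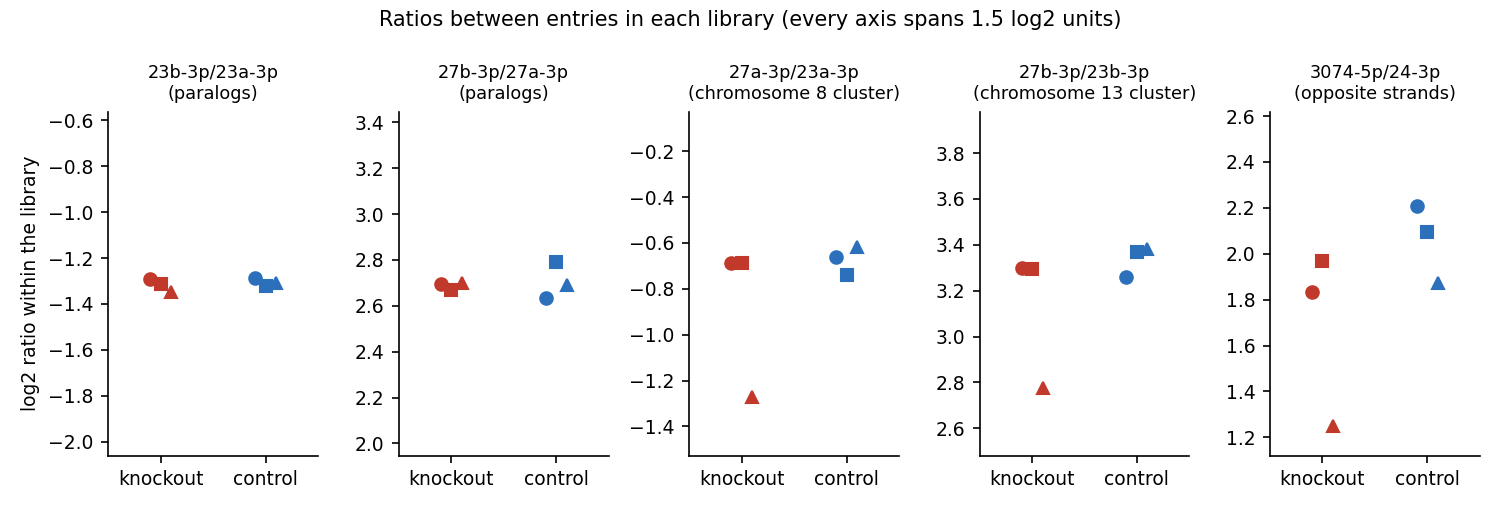
Log2 ratio between pairs of entries in each library (y axes, each spanning 1.5 log2 units), with knockout left of control and 1 symbol per replicate number. The paralog ratios are nearly level in all 6 libraries, whereas both within-cluster ratios are low in knockout replicate 3 (triangle; -1.27 and 2.78).

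The 3p arm was the main product of each miR-23 and miR-27 hairpin, and the 5p partners were close to the limit of detection. miR-27b-5p, the best covered of these, stood at 5.60, 11.9 and 2.18 RPM in the knockout and at 7.93, 11.8 and 6.76 RPM in the control libraries, 4 to 21 reads each. Its 3p arm exceeded it by 889 to 2467 times in the knockout and by 1186 to 1978 times in the control libraries. miR-23a-5p rested on 2 to 8 reads in the knockout and 2 to 9 reads in the control libraries, miR-27a-5p on 0 to 7 and 2 to 6 reads, and miR-23b-5p on 0 to 3 and 0 to 5 reads. The 3p arm exceeded the 5p arm in 6 of 6 libraries for each of the 4 hairpins (exact sign-flip permutation p = 0.03125, adjusted p = 0.0347 over 10 ratios). Between the 5p paralogs, 27b-5p was the higher in 6 of 6 libraries (exact sign-flip permutation p = 0.03125, adjusted p = 0.0347 over 10 ratios), and the log2 ratio of 23b-5p to 23a-5p ran from -2.42 to 0.87 (exact sign-flip permutation p = 0.125, adjusted p = 0.125). Genotype differences of these arm ratios were between -0.29 and 0.10 on the log2 scale with SDs of 0.38 to 1.20 within groups (n = 3 each), and the exact permutation p lay between 0.5 and 1. The 4 entries themselves had log2 fold changes of -0.25 (23a-5p), -0.57 (27b-5p), -0.61 (23b-5p) and -0.86 (27a-5p), with limma adjusted p from 0.606 to 0.852, and differences of that size were not detectable at this depth. In a limma fit of the 3p to 5p ratio over 36 hairpins whose arms both averaged 10 RPM or more, 5.56% were called, and no miR-23 or miR-27 hairpin had enough 5p reads to enter.

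For miR-24 too the 3p entry exceeded the 5p entries, but the 5p entry miR-24-2-5p was well covered. miR-24-2-5p of the chromosome 8 cluster stood at 39.8, 31.6 and 19.04 RPM in the knockout and at 54.8, 49.6 and 42.4 RPM in the control libraries, 35 to 64 and 67 to 76 reads. The groups did not overlap, and the log2 fold change was -0.73 ± 0.38 (SE, limma adjusted p = 0.256), or -0.44 without knockout replicate 3. miR-24-1-5p of the chromosome 13 cluster was listed at 0 in 5 libraries and at 1.23 RPM, 2 reads, in control replicate 3. miR-24-2-5p was the higher of the pair in 6 of 6 libraries (exact sign-flip permutation p = 0.03125, adjusted p = 0.0347 over 10 ratios). At 35 to 76 reads per library it was better covered than any other 5p entry of the clusters, although the chromosome 13 cluster had the higher miR-27 reads. miR-24-3p exceeded the sum of both 5p entries by 10.1 to 13.1 times in the knockout and by 9.63 to 11.7 times in the control libraries (difference of log2 ratios 0.17, exact permutation p = 0.3, adjusted p = 1 over 10 ratios).

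The level of miR-24-3p has to be read beside an entry on the opposite strand, named here after its values were seen. miR-3074-5p is annotated on the minus strand of both miR-24 hairpins, and 20 of its bases, in capitals, are the reverse complement of miR-24-3p.
miR-3074-5p: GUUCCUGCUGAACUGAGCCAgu
miR-3074-5p stood at 1429, 1629 and 584 RPM in the knockout and at 2569, 2040 and 1868 RPM in the control libraries, so the antisense entry exceeded miR-24-3p in all 6. It did so by 3.57, 3.92 and 2.38 times in the knockout and by 4.62, 4.28 and 3.66 times in the control libraries. The sources used here do not say whether counting used strand, and without strand, reads of the 2 entries cannot be told apart. Read as 1 product, the sum of both entries was 1829, 2045 and 830 RPM in the knockout and 3125, 2517 and 2378 RPM in the control libraries. The sum lay between 27a-3p and 23a-3p in each of the 6 libraries, whereas miR-24-3p alone lay below 23b-3p. miR-3074-5p passed the test with a log2 fold change of -0.95 ± 0.29 (SE, limma adjusted p = 0.0306). The call held with a pseudocount of 5 and among entries averaging 10 RPM or more, and was lost in the other settings tried, each library left out included. The value was -0.49 without knockout replicate 3. After rescaling to ordinary annotated miRNAs it was also -0.49, with a limma adjusted p = 0.409. The log2 ratio of miR-3074-5p to miR-24-3p was 1.68 ± 0.38 in knockout and 2.06 ± 0.17 in control vesicles (SD, n = 3 each), a difference of -0.37, or -0.16 without knockout replicate 3.

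Among 268 other annotated entries averaging 10 RPM or more, the 6 whose profile over the libraries lay nearest to the mean profile of the 5 main products were let-7e-5p, miR-199a-5p, miR-125b-2-3p, miR-206-3p, miR-99b-5p and miR-100-5p. Likeness was the root mean square difference of centred log2(RPM + 1) over 6 libraries, 0.041 for let-7e-5p to 0.071 for miR-100-5p, against a median of 0.29 over all candidates. let-7e-5p, a let-7 family member, stood at 1378, 1438 and 849 RPM in the knockout and at 2094, 1788 and 1880 RPM in the control libraries. miR-199a-5p, a mesenchymal miRNA, stood at 24330, 22921 and 14099 RPM in the knockout and at 36025, 28942 and 30890 RPM in the control libraries. The shared shape was high control libraries, intermediate knockout replicates 1 and 2, and low knockout replicate 3. All points share the same 6 libraries and their totals.

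Of 11 miRNAs reported to act on Runx2, 8 had an entry and 5 were tested, miR-23a-3p included. None passed in either direction, against 4.85% of all tested entries, and 4 of the 5 lay below 0, with a median log2 fold change of -0.53. Of all tested entries 60.1% lay below 0, with a median of -0.27, and 19.3% were lower without overlap. Ordinary annotated miRNAs averaging 10 RPM or more had 79.9% below 0, a median of -0.59 and 52.8% lower without overlap. miR-30c-5p, of the miR-30 family, stood at 709, 811 and 625 RPM in the knockout and at 1078, 1060 and 952 RPM in the control libraries, and its groups did not overlap. miR-34c-5p, a p53 target gene product, stood at 3090, 3351 and 2124 RPM in the knockout and at 3614, 3961 and 3485 RPM in the control libraries, also without overlap. miR-23a-3p lay between these 2 by RPM in 3 of 3 knockout and 2 of 3 control libraries, and above both in control replicate 1. miR-204-5p and miR-218-5p stayed under 8 RPM in every library, and their log2 fold changes were -1.01 and 1.37.

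Other miRNA families built as paralogous clusters are set beside these values. The 23 entries of the miR-17 polycistron and its paralogs, which promote proliferation, had 16 tested, a median log2 fold change of -0.46, and 3 lower without overlap (18.75%, against 19.3% of all tested entries). The 11 entries of the miR-30 family had 11 tested, a median of -0.53, and 6 lower without overlap (54.5%, against the same 19.3%, and 52.8% of ordinary annotated miRNAs averaging 10 RPM or more). None passed the limma threshold in either family, against 4.85% of all tested entries. The difference of the miR-23-27-24 clusters from these families was not tested.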

How the data were processed

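Per the labels' protocols, the vesicles were pelleted from cleared medium, and small RNA was prepared from Trizol extracts. The authors deposited 1 table of RPM values, each column scaled to 1000000 over 1712 entries (1528 annotated and 184 with a numeric ID), so where one abundant entry is higher, the rest read lower. The submitters' processing notes name fastp and edgeR, while their versions, the aligner, the annotation and the genome build used are not given in the sources here. All values were whole multiples of 0.5 of their column's lowest value above 0 (tolerance 0.001 read). That lowest value was taken as 2 reads, so reads are approximate. Without molecular identifiers, depth limits cover counting error only.

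limma 3.58.1 (R 4.3.3) with a mean-variance trend was fitted to log2(RPM + 1) of 1114 entries with at least 1 RPM in at least 3 libraries, 2-sided, with Benjamini-Hochberg adjustment. Single ratios, with 1 RPM added to both sides, had exact permutation tests (SciPy 1.17.1). These were 10 ratios, and 3 more were added after seeing values and not tested. limma was tested on simulated data. The named entries were the 11 cluster entries, the fixed lists and the 6 nearest profiles. Members and lists were chosen with earlier results of these data known. The edgeR and DESeq2 alternatives were not run, because no entry stands at 1 read. Alternatives were other pseudocounts, filters, scalings, priors, a replicate block and leaving out each library. The labels do not say whether replicate numbers pair libraries.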

Additional observations from a re-analysis of the deposited data

Results flagged for a closer look

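The ratios between entries are averaged over all 6 libraries, and knockout replicate 3 stood apart in 2 of them by Dixon's rule on the gap to the nearest library. Its log2 ratio of 27a-3p to 23a-3p was -1.27, with a gap of 0.809 of the whole range, and its log2 ratio of 27b-3p to 23b-3p was 2.78, with a gap of 0.798. Without it the SDs over the remaining libraries were 0.045 and 0.053, against 0.24 and 0.23 with it. Nearly level paralog ratios tie the 2 ratios to each other, so they are not separate flags. Chance flags about 1 in 20 such sets, 13 ratios were looked at, and the 2 share their library. This library also had the smallest ordinary annotated share of reads (30.1%), and the part of that in the ratios was not tested.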

How the results depend on the processing

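The cluster entries called stayed at 0 in each setting except quantile normalization, where miR-27b-3p passed and the count was 1 (log2 fold change -0.92, limma adjusted p = 0.0337). Their median log2 fold change was -0.25 after rescaling to ordinary annotated miRNAs, against -0.59, and lay between -0.75 and -0.42 with a library left out. Of 166 alternative fold changes of the tested cluster entries 3 turned, all of miR-23a-5p, to 0.11 after that rescaling and within a range of -0.68 to 0.21 with a library left out.

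Over all entries 24 were higher and 30 lower. The counts were 21 and 15 both with a pseudocount of 0.5 and without a filter, 27 and 71 among entries averaging 10 RPM or more, 34 and 1 after rescaling to ordinary annotated miRNAs, 27 and 5 after rescaling to all mouse miRNA names, 32 and 8 with median centring, 32 and 16 with quantile normalization, 22 and 17 with a robust prior, and 0 and 0 without a trend (limma, 55 and 75 at an unadjusted p under 0.05). With a library left out they ran from 0 to 26 higher and 0 to 18 lower. They were 18 and 3 without control replicate 1, 6 and 0 without control replicate 2, 0 and 0 without control replicate 3 (limma, 53 and 84 at an unadjusted p under 0.05), and 18 and 18, 14 and 6, and 26 and 15 without knockout replicates 1, 2 and 3. With the replicate block they were 19 and 11. Deviations of same-numbered libraries had correlations of 0.005, -0.024 and 0.011. With so few libraries these cannot decide whether same-numbered libraries were prepared together. Outside the replicate block the numbers only name libraries here.

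Hairpins with a changed arm ratio numbered 2 of 36, 4 with a pseudocount of 5, 0 of 54 at 5 RPM or more (limma, 5 at an unadjusted p under 0.05), and 0 to 7 with a library left out (7 without knockout replicate 1, and 0 without control replicate 2, knockout replicate 2 or knockout replicate 3). Genotype differences of ratios turned in 18 of 104 values, and the cause was not tested. With a pseudocount of 5 they were -0.083 (27b-5p/27a-5p), -0.35 (23b arms) and -0.50 (27a arms). With a library left out they ran from -0.025 to 0.0031 for 23b-3p/23a-3p, -0.053 to 0.025 for 27b-3p/27a-3p, -1.16 to 0.53 for 23b-5p/23a-5p, -0.16 to 0.65 for 27b-5p/27a-5p, -0.77 to 0.17 for the 23a arms, -0.48 to 0.70 for the 23b arms, -0.43 to 0.70 for the 27a arms and -0.41 to 0.13 for the 27b arms. Ratio levels kept their direction in 104 of 104 values. Depth limits the 5p entries other than miR-24-2-5p, which rest on 0 to 21 reads.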
